A study of Mus musculus with 6 samples.

Results

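The genes of the cytosolic ribosome were compared between mouse inner medullary collecting duct (IMCD) cells carrying the ILK variant T173I and IMCD cells carrying wild-type ILK. Members were taken by symbol: Rpl or Rps followed by a number, or Rplp0 to Rplp2, without the S6 kinases and without names marked as pseudogenes. Of 22180 genes with a probe set of their own, 68 met this rule. They comprise 35 proteins of the large subunit, 22 proteins of the small subunit, 10 copies or paralogues, and Rps19bp1, which encodes a protein that binds Rps19 and is no part of the ribosome.

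Both groups were stable lines made with a lentivirus that encodes GFP and ILK on the same bicistronic transcript, so the wild-type ILK cells also carry exogenous ILK. ILK, integrin-linked kinase, is a focal adhesion scaffold. All cells were given EGF at 20 ng/ml for 15 minutes and left for 1 hour more before RNA was taken, so the comparison does not hold an unstimulated state. There were 3 arrays in the ILK-T173I group and 3 in the wild-type ILK group, called biological replicates in the labels. The labels do not state how many independent lines stand behind them, so line and variant cannot be told apart, and p-values measure the spread between these arrays.

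A ribosome is built from a large and a small subunit, each an RNA scaffold coated with proteins. Most of these are small and basic, and most are needed in equal numbers. The transcripts for these proteins are among the most abundant of a growing cell. Many begin with a 5′ terminal oligopyrimidine (TOP) tract, a stretch of C and T (C and U in the RNA) at the start site through which the growth-factor-controlled kinase complex mTORC1 sets their translation. Control by that route acts on translation and need not change the amount of RNA, which is what the arrays measure.

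The start sites of a few members are shown because this tract is a feature that the choice of members did not use. Sequences are from RefSeq (GRCm38.p6), on the gene's own strand, from 10 bases before the annotated start to 20 bases after it, in the first exon. Capitals mark the longest unbroken run of C and T in the window. For Rps27l and Rpl22 the first of 2 listed starts is shown.

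Rps6 (chr4:86857348-86857377, minus strand): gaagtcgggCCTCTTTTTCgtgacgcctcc
Rpl28 (chr7:4792955-4792984, plus strand): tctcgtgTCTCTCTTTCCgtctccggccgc
Rpl15 (chr14:18270967-18270996, minus strand): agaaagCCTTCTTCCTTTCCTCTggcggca
Rps27 (chr3:90213629-90213658, minus strand): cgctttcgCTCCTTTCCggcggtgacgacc
Rps27l (chr9:66946076-66946105, plus strand): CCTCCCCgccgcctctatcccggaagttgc
Rpl22 (chr4:152325716-152325745, plus strand): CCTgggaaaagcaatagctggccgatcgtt
Rpl22l1 (chr3:28805498-28805527, plus strand): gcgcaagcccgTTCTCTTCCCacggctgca
Rpl39 (chrX:37085203-37085232, minus strand): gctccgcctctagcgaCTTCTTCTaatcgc
Rpl39l (chr16:10170218-10170247, plus strand): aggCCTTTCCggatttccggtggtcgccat

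In Rps6, Rpl28, Rpl15 and Rps27 the run spans the annotated start, with lengths of 10, 11, 17 and 9 bases. The paralogue Rps27l has its longest run, 7 bases, wholly before the annotated start, and the first start listed for Rpl22 has a run of only 3 bases. The windows do not divide subunit genes from paralogues: the run of Rpl39 begins only 6 bases after the start, and the paralogue Rpl22l1 has a run of 10 bases just after it. Of the 68 members 53 were in the promoter table, and the subunit proteins among them had 51 listed starts. A run of at least 8 pyrimidines in this window occurred at 37.3% of those 51 starts, at 30.0% of 10 starts of copies and paralogues, and at 11.2% of all 32851 starts in the table. A C followed by 4 pyrimidines exactly at the start occurred at 19.6%, against 2.51% of all starts. Over the full 300 bases of the table (250 before the start), CCGGAAG, the core of sites for Ets-family factors, was present on either strand at 39.2% of these starts and 8.86% of all starts. AAGATGG, a core of the sites of the factor YY1, was present on either strand at 11.8% against 6.34%. These are shares of letters in annotated windows, and annotated starts can be displaced by a few bases from the true ones.

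On the arrays, the cells had the signal of an epithelium, while several markers of the collecting duct were dim or below the filter level. Of 12 measured epithelial and collecting duct markers, 10 were above the level used as a filter (log2 5.37), among them Cdh1, Epcam, Pax2 and Pax8. Of all 22180 genes, 13308 were above that level, so counts above it alone say little about a cell type. Below the filter level were Tfap2b, at 4.71 in T173I and 4.74 in wild type, and Elf5, at 4.84 in T173I and 4.94 in wild type. Gata3 was above it but dim, at 6.30 in T173I and 7.08 in wild type. Aqp2, the water channel of principal cells, was low at 6.11 ± 0.14 in ILK-T173I and 6.07 ± 0.05 in wild-type ILK (SD, n = 3 each), and Aqp3 and Scnn1b were below the filter level. Of 6 principal cell markers 4 were above that level, Aqp2 included, with Scnn1g at 6.42 ± 1.06 in T173I and 7.61 ± 0.30 in wild type and Avpr2 at 6.50 ± 0.61 in T173I and 6.80 ± 0.10 in wild type (SD, n = 3 each). Also above it were 3 of 4 intercalated cell, 0 of 4 endothelial, 2 of 7 fibroblast and 2 of 5 leukocyte markers. The leukocyte list differed by gene: Cd68 was at 9.04 in T173I and 7.94 in wild type, Csf1r at 5.99 in T173I and 6.77 in wild type, and Ptprc at 3.69 in T173I and 3.70 in wild type. The summed log2 level was 107.0 to 108.14 in T173I and 105.99 to 107.08 in wild type for the epithelial list. It was 34.29 to 37.16 in T173I and 36.66 to 37.40 in wild type for the principal cell list, and 27.69 to 28.998 in T173I and 27.26 to 28.71 in wild type for the leukocyte list. The part of these markers in the results was not tested. Array medians were 5.45 to 5.52. T173I arrays differed more among themselves than wild-type arrays, with correlations of 0.964 to 0.983 against 0.989 to 0.993 over the 13308 genes tested. T173I replicate 2 lay farthest out on the first principal component, at 38.3, while T173I replicate 1, at -11.4, lay close to the wild-type arrays at -18.3 to -11.3. Values below are therefore also given without single arrays.

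The signal of ribosomal protein probe sets fell into a bright and a dim part. Of the 57 subunit proteins, 31 had a mean log2 signal of 10 or more over the 6 arrays, a level chosen after the values were seen. Rpl21, Rpl29 and Rpl28, all large-subunit proteins, were the brightest, at 13.32, 13.19 and 13.06 in ILK-T173I and 13.32, 13.18 and 13.09 in wild-type ILK. Rpl21 lay at the 99.98th percentile of all 22180 genes. Rps6, the small-subunit protein phosphorylated by the S6 kinases, was at 13.07 ± 0.063 in ILK-T173I and 13.06 ± 0.057 in wild-type ILK (SD, n = 3 each).

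The other 26 subunit proteins had signals below 10, and those of Rpl11 (5.73 over all arrays), Rps16 (5.67) and Rplp2 (5.31) were near the filter level, although the ribosome holds each of these proteins. Signals of different probe sets depend on their probes, so these levels do not rank the transcripts. A dim probe set also leaves less room to measure a difference. Besides, 21 of the 80 proteins of the mammalian cytosolic ribosome had no probe set of their own in the annotation, so they are in no comparison by gene; 12 of them share a probe set with another symbol, and such shared probe sets are described at the end. The remaining 2, Rpsa and Fau, have symbols outside the rule and are given below with the companion genes.

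In the comparison of T173I with wild type, the ribosomal protein genes differed little. None of the 63 members that passed the filter had a limma adjusted p under 0.05, as for all genes tested (0.0% called), and the lowest adjusted p among them was 0.45. At an unadjusted p under 0.05, 1 member was higher and 0 were lower, where the shares of all genes tested were 4.88% (higher) and 5.31% (lower). In 6 of the 63 members all T173I arrays lay above all wild-type arrays, and in 0 all lay below, where 7.23% and 7.95% of all genes did so. These are bulk RNA samples, in which fewer cells with a transcript and less RNA per cell cannot be told apart, and their normalization would hide a shift shared by most transcripts. The 5 members left out by the filter were Rplp2, Rpl22l1, Rpl3l, Rpl10l and Rpl32l.

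For the 31 bright subunit proteins the intervals were narrow. All 31 had 95% intervals of the difference inside ±0.5 log2 units (1.41-fold), from -0.39 at the lowest end to 0.47 at the highest, with ends a median of 0.21 from the difference. For the 25 dimmer subunit proteins tested, 13 had intervals inside those bounds, and the median distance was 0.31. For the brightest probe set of each gene, the interval of each bright member thus left out a change of array signal beyond 1.41-fold. Those of 12 dimmer members did not. Whether bright signals follow the amount of RNA in proportion was not tested. Some bright members had other probe sets with larger differences. Over all their own probe sets, differences ran from 0.0088 to 0.45 for Rpl29, 0.0088 to 0.57 for Rps24 and -0.26 to 0.60 for Rpl3.

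**Figure D1:**
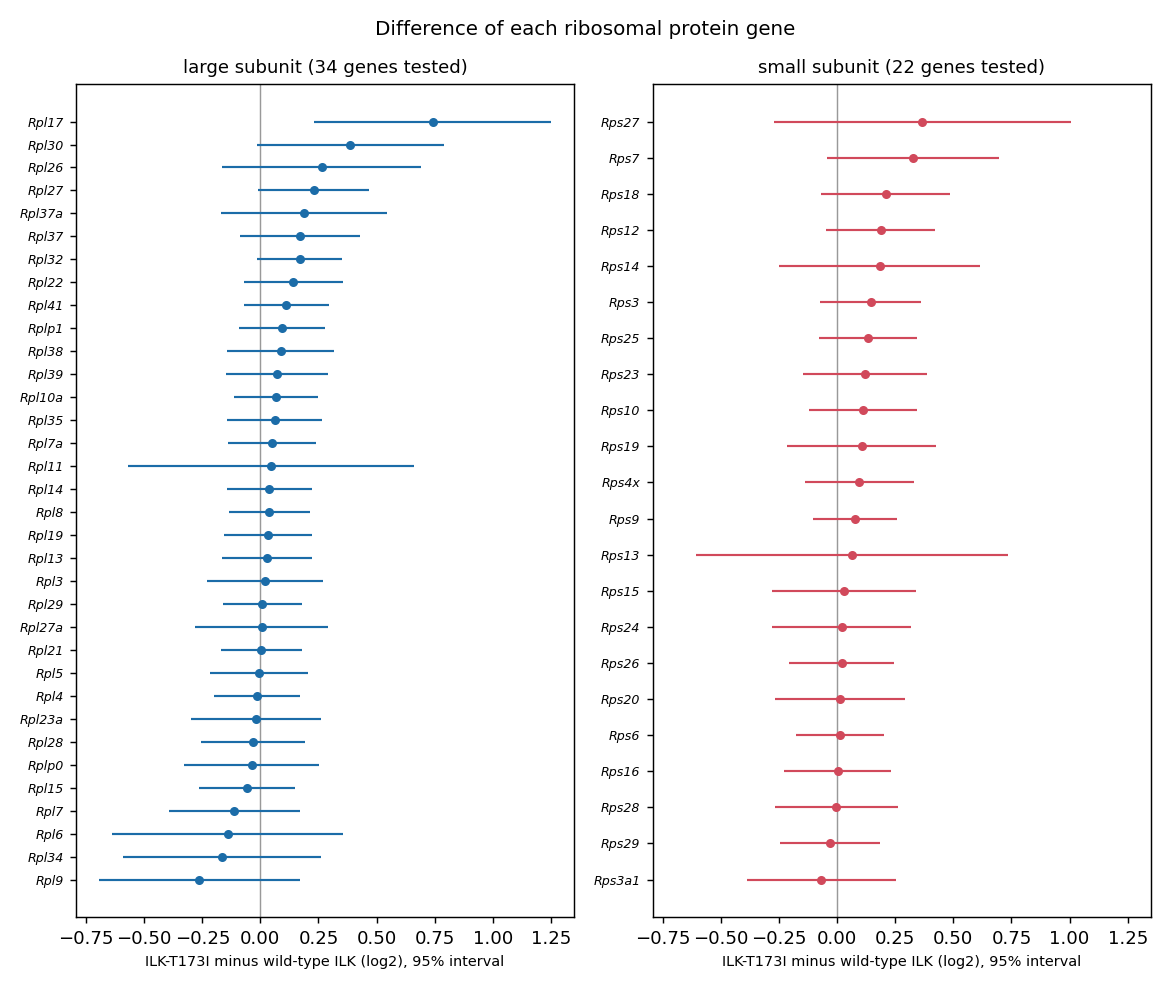
Difference of each tested subunit protein gene, ILK-T173I minus wild-type ILK, in log2 units, for 34 large-subunit genes (left) and 22 small-subunit genes (right). Points are differences of the means of 3 arrays a group and bars are limma's 95% intervals; only the interval of Rpl17 excludes 0.

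Among large-subunit proteins, 24 of 34 had a positive difference, with a median of 0.039 log2 units and a middle range (quartiles) of -0.013 to 0.11. Among small-subunit proteins, 19 of 22 were positive, with a median of 0.086 and quartiles of 0.014 and 0.14. The median over all genes tested was -0.011, and 47.4% of them were positive. The gap between the subunits was within the spread of the arrays. Relative to each gene's wild-type mean, the large-subunit mean minus the small-subunit mean was -0.0051, 0.0018 and -0.090 on T173I replicates 1, 2 and 3, and -0.037, 0.038 and -0.00043 on wild-type replicates 1, 2 and 3. Without wild-type replicate 3 the median of the large subunit was 0.0018 and that of the small subunit 0.050. Without T173I replicate 3 the small-subunit median was 0.034.

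The member with the lowest p was Rpl17, a large-subunit protein that lines the peptide exit tunnel. Its log2 signal was 6.21, 6.84 and 6.15 on the T173I arrays, against 5.41, 5.88 and 5.70 on the wild-type arrays. The groups did not overlap, and T173I replicate 2 was the highest. The difference was 0.74, or 1.67-fold, with a 95% interval of 0.23 to 1.251 (limma unadjusted p = 0.011, adjusted p = 0.45), so it did not pass. The probe set was dim, at the 51.8th percentile of genes, and leaving out single arrays gave differences of 0.52 to 0.87.

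Other large-subunit genes on the positive side were Rpl30, Rpl27, Rpl32 and Rpl22, none past the adjusted threshold. Rpl27 had a log2 signal of 10.68, 10.95 and 10.72 on the T173I arrays, against 10.58, 10.61 and 10.475 on the wild-type arrays. Its groups did not overlap, and its second, dimmer probe set gave almost the same difference (0.22, against 0.23). Rpl32 had 12.41, 12.53 and 12.50 on the T173I arrays, against 12.34, 12.32 and 12.27 on the wild-type arrays. Here too all T173I arrays were above all wild-type arrays, by a mean of 0.17 with an interval of -0.013 to 0.35 (adjusted p = 0.49). Rpl30 differed by 0.39 (interval -0.013 to 0.79) and overlapped, since T173I replicate 3, at 6.47, was just under wild-type replicate 3, at 6.485. A bright probe set that Rpl30 shares with a predicted gene had 12.54 in T173I and 12.55 in wild type, a difference of -0.0093.

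Rpl41, a very short basic protein, and Rplp1, an acidic protein of the ribosomal stalk that recruits elongation factors, completed the large-subunit genes without overlap, with differences of 0.11 and 0.092. The 5 probe sets of Rpl41 had differences of -0.080 to 0.11, and the dimmer other probe set of Rplp1 had -0.14. Rplp0, the base of the same stalk, differed by -0.038 with an interval of -0.33 to 0.25. Rpl5 and Rpl11, which bind and restrain the p53 ligase Mdm2 when ribosome assembly fails, had differences of -0.0053 (interval -0.22 to 0.21) and 0.046 (interval -0.57 to 0.66). A brighter probe set that Rpl5 shares with Rpl5-ps2 had 9.15 in T173I and 9.42 in wild type, a difference of -0.27. On that probe set all T173I arrays lay below all wild-type arrays, as in 7.95% of all genes tested. Rpl11 spread widely in T173I, at 5.71, 6.32 and 5.23, against 5.66, 5.79 and 5.66 in wild type. Both its highest and its lowest value were T173I arrays.

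On the negative side the large-subunit genes with the lowest p were Rpl9, Rpl7, Rpl34, Rpl15 and Rpl6, with unadjusted p of 0.19 to 0.52. Rpl9 was at 9.55, 9.85 and 10.06 on the T173I arrays, against 10.35, 10.09 and 9.82 on the wild-type arrays. The groups overlapped, the difference was -0.26 (interval -0.70 to 0.17), and its dimmer second probe set had a difference of 0.40 in the opposite direction. Rpl6 was at 6.79, 7.22 and 6.36 in T173I, against 6.96, 6.98 and 6.87 in wild type, so that the T173I arrays lay on both sides of the wild-type arrays.

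Among small-subunit proteins, Rps7 was the only gene without overlap. It was at 7.03, 7.57 and 7.19 on the T173I arrays, against 6.79, 7.03 and 6.995 on the wild-type arrays, a difference of 0.33 (interval -0.043 to 0.70, adjusted p = 0.51). T173I replicate 1 and the highest wild-type array, replicate 2, lay almost level. Rps12, Rps18, Rps3 and Rps25 had differences of 0.19, 0.21, 0.14 and 0.13, each with overlapping groups. Rps19, which is mutated in Diamond-Blackfan anaemia, differed by 0.11 (interval -0.22 to 0.43). Only Rps3a1, Rps29 and Rps28 had negative differences, of -0.068, -0.030 and -0.0039. Rps4x, coded on the X chromosome, differed by 0.096 (interval -0.14 to 0.33).

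**Figure D2:**
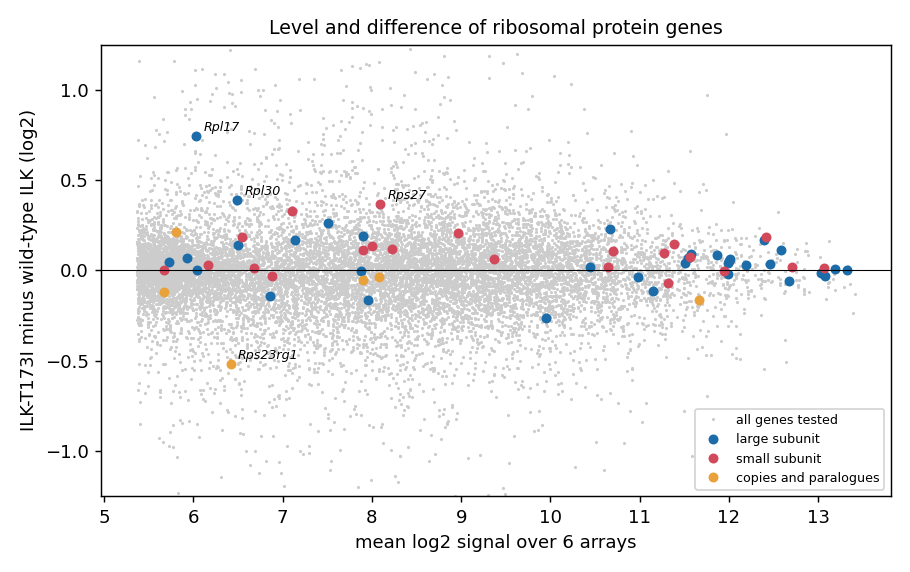
Mean log2 signal over the 6 arrays (x axis) and ILK-T173I minus wild-type ILK in log2 units (y axis) for large-subunit genes, small-subunit genes, and copies and paralogues, over all 13308 genes tested in grey; 88 grey genes beyond the axis are not shown. Only the brightest probe set of each gene is shown. Bright ribosomal protein genes lie close to 0. The larger differences shown, such as 0.74 for Rpl17 and -0.52 for Rps23rg1, belong to dim probe sets.

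The spread of the differences followed the brightness of the probe sets. The median absolute difference was 0.052 for the 31 bright subunit proteins and 0.14 for the 25 dimmer ones. Over all genes tested it was 0.108 among the 1919 genes with a mean of 10 or more and 0.117 among the rest. The median SD between arrays of bright subunit proteins was 0.064 in T173I and 0.078 in wild type, and that of the dimmer ones 0.19 in T173I and 0.13 in wild type.

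The bright ribosomal protein genes moved together from array to array, also within the wild-type group. Among the 31 bright subunit proteins, wild-type replicate 1 was the highest of the wild-type arrays for 27 genes and wild-type replicate 3 the lowest of all 6 arrays for 25. Over all genes tested, 12.5% were lowest on wild-type replicate 3. Of those with a mean of 10 or more, 37.4% had their highest wild-type value on replicate 1. The mean of the bright members, relative to each gene's wild-type mean, was 0.0048, 0.025 and 0.10 on T173I replicates 1, 2 and 3, and 0.085, -0.00064 and -0.084 on wild-type replicates 1, 2 and 3. The T173I values lay mostly inside the wild-type range, with replicate 3 just above wild-type replicate 1. Without wild-type replicate 3 the median difference of the bright members was -0.0020 with 15 of 31 positive, and without wild-type replicate 1 it was 0.069 with 28 of 31 positive.

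On the wild-type arrays the mean of the 25 dimmer members ran the same way, highest on replicate 1 and lowest on replicate 3. By gene the pattern was weaker. The highest wild-type array was replicate 1 for 12 genes and replicate 2 for 10, and wild-type replicate 3 was the lowest of all 6 arrays for 11. The mean of the dimmer members was 0.0068, 0.30 and 0.047 on T173I replicates 1, 2 and 3, and 0.051, 0.026 and -0.077 on wild-type replicates 1, 2 and 3. Only T173I replicate 2 stood outside the wild-type range, and it was the highest array for 14 of these 25 genes, where 22.6% of all genes tested had their highest value there. Rps27, a small zinc-binding protein, is an example: it was at 7.91, 8.92 and 8.003 on the T173I arrays, against 8.07, 7.85 and 7.81 on the wild-type arrays. Its difference of 0.37 was 0.046 without T173I replicate 2. A far brighter probe set that Rps27 shares with Rps27rt had 12.63 in T173I and 12.62 in wild type, a difference of 0.013. For the 25 genes the median difference was 0.11 with all arrays and 0.046 without that array.

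**Figure D3:**
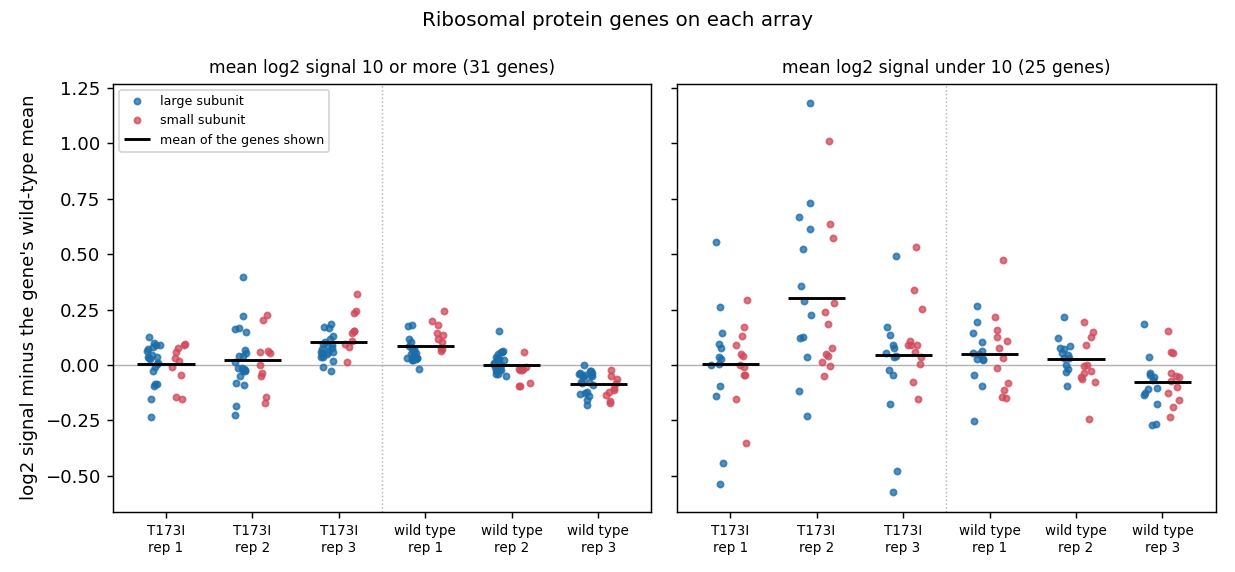
Log2 signal of each subunit protein gene minus its wild-type mean (y axis) on each of the 6 arrays (x axis), for 31 genes with a mean of 10 or more (left) and 25 tested genes below 10 (right); blue points are large-subunit genes, red points small-subunit genes, and black lines the mean of the genes shown. Bright genes are shifted up on wild-type replicate 1 and down on wild-type replicate 3, and dimmer genes reach their highest mean, 0.30, on T173I replicate 2.

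Paralogues can replace a ribosomal protein in some tissues, and 5 pairs of paralogue and partner both had a probe set. Each pair was compared as the paralogue minus its partner on the same array, where the exact two-sided permutation test of 3 against 3 arrays cannot give a p below 0.1. A shift of this value shows unequal change of the pair, and its absolute size depends on the probes. None of the 5 pairs could therefore pass 0.05, so the p-values do not show that a pair was unchanged. They were 0.1 to 0.9 in the exact permutation test and 0.5 to 0.9 after Benjamini-Hochberg adjustment over 5 pairs.

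The pair of Rps27l, a paralogue known as a p53 target, and Rps27 had the largest shift. Rps27l minus Rps27 was 0.036, -0.76 and 0.059 on the T173I arrays, against 0.13, 0.24 and 0.19 on the wild-type arrays. All T173I values were lower, by a mean of 0.41 log2 units (exact permutation p = 0.1, Benjamini-Hochberg p = 0.5). Without T173I replicate 2 the shift was -0.14. It also rests on the dim probe set of Rps27, since the bright probe set shared with Rps27rt differed by only 0.013. Rps27l itself hardly differed, at 8.06 ± 0.11 in T173I and 8.10 ± 0.096 in wild type (SD, n = 3 each), with an interval of -0.26 to 0.19.

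Rpl22l1, which can take the place of Rpl22 and is regulated by it, was dim at 5.18, 5.37 and 5.24 on the T173I arrays, against 5.10, 4.89 and 5.43 on the wild-type arrays. Both the lowest and the highest value were wild-type arrays. Rpl22l1 minus Rpl22 was -1.31 ± 0.077 in T173I and -1.29 ± 0.36 in wild type (SD, n = 3 each), a shift of -0.023 (exact permutation p = 0.9). The direction of that shift turned when T173I replicate 1 or wild-type replicate 3 was left out, at 0.019 and 0.17.

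Rpl39l, a paralogue known from the testis, was at 5.72, 5.73 and 5.36 on the T173I arrays, against 5.73, 5.75 and 5.68 on the wild-type arrays, and only T173I replicate 3 stood apart. Rpl39l minus Rpl39 shifted by -0.19 (exact permutation p = 0.4). Rpl7l1 minus Rpl7 shifted by 0.060 (exact permutation p = 0.5), with T173I values of -3.29 to -3.10 and wild-type values of -3.43 to -3.13. Rpl3l, the muscle paralogue of Rpl3, was below the filter level (4.96 in T173I, 4.78 in wild type), and Rpl3l minus Rpl3 shifted by 0.16 (exact permutation p = 0.4). Rpl10l, a paralogue of the testis, was also below it, at 3.78 in T173I and 3.80 in wild type.

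**Figure D4:**
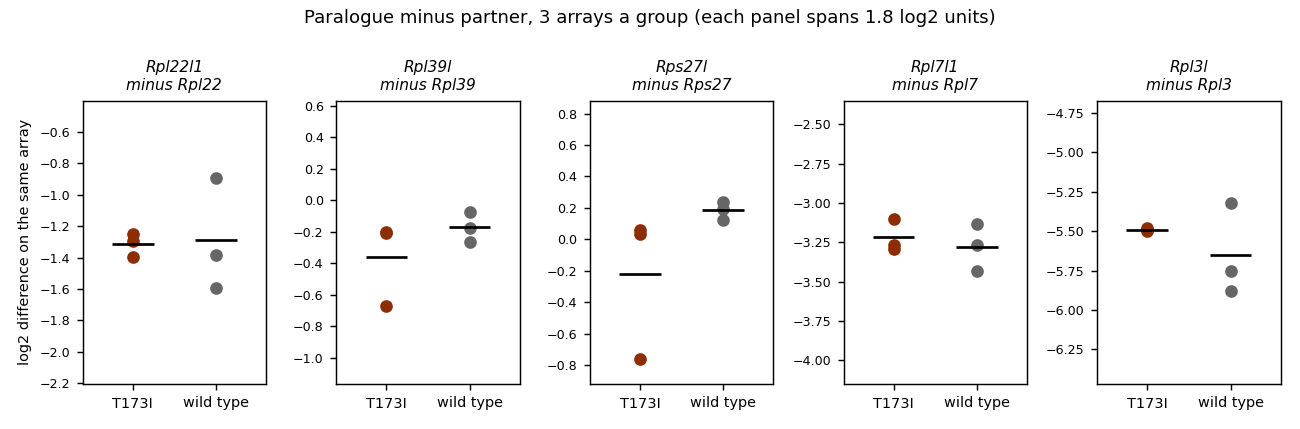
Log2 signal of the paralogue minus that of its partner on the same array (y axis, log2 units) for 5 pairs, with the 3 ILK-T173I arrays left of the 3 wild-type ILK arrays in each panel; points are arrays and lines group means. The groups are apart only for Rps27l minus Rps27, where T173I replicate 2 lies at -0.76.

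Other copies taken by the symbol rule were Rpl6l, Rpl32l, Rps4l and Rps23rg1. Rpl6l and Rps4l are pseudogenes in RefSeq, and their probe sets may also bind the transcripts of the parent genes. Rps23rg1, a retrogene of Rps23, had the largest negative difference of all members, -0.52 with an interval of -1.40 to 0.36. It was at 5.93, 6.13 and 6.42 in T173I, against 7.45, 6.66 and 5.92 in wild type. The wild-type arrays spread over more than the whole T173I range, and wild-type replicate 3 lay below all T173I arrays. Without wild-type replicate 1 the difference was -0.13, and without wild-type replicate 3 it was -0.90 (limma unadjusted p = 0.019, adjusted p = 0.62). Rps4l differed by 0.21 (interval -0.047 to 0.47) and Rpl6l by -0.17 (interval -0.41 to 0.083). Rpl32l was the dimmest member, at 3.392 in T173I and 3.304 in wild type. Rps19bp1, the member that is no ribosomal protein, differed by 0.065 (interval -0.15 to 0.28).

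Genes that work with the ribosome were read in the same fit. Rpsa and Fau, small-subunit proteins with other symbols, had differences of -0.077 and -0.096 with overlapping groups. Of 70 tested proteins of the mitochondrial ribosome, 45 had a positive difference (median 0.044), and an unadjusted p under 0.05 was reached by 0 higher (4.88% of all genes) and 1 lower (5.31%). Their means on the arrays ran from 0.020 to 0.050 in T173I and from -0.023 to 0.016 in wild type, a narrower range than that of the cytosolic proteins. Mrps18c had the lowest p among them, with a difference of -0.25 (interval -0.48 to -0.012, adjusted p = 0.49), and Mrpl32 and Mrpl3 differed by 0.20 and 0.19.

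Ribosome biogenesis factors, the nucleolar proteins and RNA polymerase I subunits that make and assemble the ribosomal RNA, followed T173I replicate 2. Of 43 tested, 36 had a positive difference (median 0.12), where 47.4% of all genes tested did. Of the same 43, 38 had their highest value on T173I replicate 2, where 22.6% of all genes tested did. That array was also the lowest for 31.4% of all genes tested. The mean of the list was -0.028, 0.41 and 0.0025 on T173I replicates 1, 2 and 3, against 0.0010, 0.011 and -0.012 on wild-type replicates 1, 2 and 3. Without T173I replicate 2, 17 of 43 were positive and the median was -0.022. At an unadjusted p under 0.05, 1 was higher (4.88% of all genes tested) and 0 were lower (5.31%). The higher gene was Nob1, the nuclease that trims the end of 18S rRNA, by 0.35 (limma adjusted p = 0.49). Nob1 was at 10.66, 11.09 and 10.64 on T173I replicates 1, 2 and 3, against 10.52, 10.515 and 10.295 on the wild-type arrays. Polr1c, a subunit of RNA polymerases I and III, and Ubtf, the upstream binding factor of RNA polymerase I, had differences of 0.23 and -0.16.

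Of 25 initiation factors tested, 16 had a positive difference (median 0.034), and an unadjusted p under 0.05 was reached by 3 higher and 1 lower in T173I, where 4.88% of all genes tested were higher and 5.31% lower. Eif2s2, the beta subunit of the factor that brings the initiator tRNA, was at 8.09, 8.15 and 8.24 on the T173I arrays, against 7.92, 7.79 and 7.81 on the wild-type arrays. The groups did not overlap, and the difference was 0.32 (interval 0.12 to 0.52, adjusted p = 0.45). Eif3i differed by 0.25 and Eif4h, a helper of the helicase Eif4a, by -0.30. Of 14 elongation factors and other genes known for TOP transcripts, 9 were positive (median 0.046) and 0 passed that level in either direction. Nap1l1, Eef1g and Eef1d had differences of 0.20, 0.17 and 0.19.

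Among 17 tested genes of mTORC1 and of the control of ribosome synthesis, an unadjusted p under 0.05 was reached by 1 higher and 2 lower in T173I, against the same 4.88% and 5.31% of all genes. Eif4ebp1, which encodes the 4E-BP1 repressor of cap-dependent initiation, was at 10.38, 10.71 and 10.72 on the T173I arrays, against 9.97, 10.31 and 10.08 on the wild-type arrays. The groups did not overlap, by a mean of 0.48 (interval 0.16 to 0.81, adjusted p = 0.45). Rheb, the GTPase that activates mTORC1, and Maf1, a repressor of RNA polymerase III, had differences of -0.24 and -0.46, again without overlap. None of the genes in these lists had an adjusted p under 0.05.

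**Figure D5:**
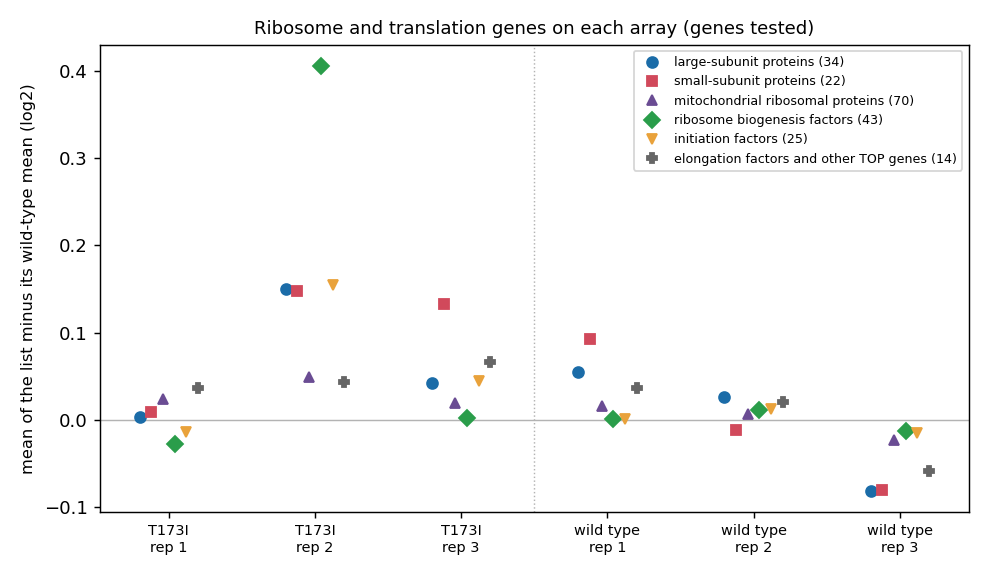
Mean of each list of tested genes minus its wild-type mean (y axis, log2 units) on each of the 6 arrays (x axis); the number of genes is in the legend. On T173I replicate 2 the biogenesis factors reach 0.41, the initiation factors 0.15 and the proteins of both subunits 0.15, while on T173I replicate 3 the small-subunit proteins are highest at 0.13.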

How the data were processed

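RNA of 6 samples was hybridised to Affymetrix whole-transcript arrays after labelling with the WT PLUS kit, per the labels' protocols. The authors deposited log2 signals per probe set, made with RMA (submitters' processing notes); no label states its version or probe set definition. RMA makes the signal distributions of the arrays alike. Of 41345 probe sets, 23521 had 1 gene symbol in the platform annotation, and the brightest stood for each of 22180 genes. All 68 members had an Entrez identifier in the table of GRCm38.p6, used for names and chromosomes. The 40% of genes with the lowest mean (log2 5.37 or less) were left out.

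The remaining 13308 genes were fitted with limma (version 3.58.1, R 4.3.3), lmFit and eBayes, without covariates, two-sided, with Benjamini-Hochberg adjustment over all of them. Scripts were tested on simulated data. Paralogue pairs were compared by an exact permutation test. Named were all paralogues and partners, up to 5 subunit genes a direction with the lowest p, and the 3 brightest and 3 dimmest members. Up to 3 genes a companion list with the lowest p were also named. Rpl41, Rplp0, Rplp1, Rplp2, Rpl5, Rpl11, Rps6, Rps16, Rps19, Rps24, Rps4x and Rps19bp1 were added after their values were seen. The members, lists and tests were chosen with earlier results of these data known. Same-numbered arrays did not deviate together (correlations of deviations 0.048 to 0.067), so numbers were not treated as pairs. The number of arrays limits the precision. Alternatives covered the filter, the eBayes prior, normalization, the probe set rule, array weights, a replicate block and each array left out.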

Additional observations from a re-analysis of the deposited data

How the results depend on the processing

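The count of members past an adjusted p of 0.05 was 0 under each alternative run. Of all genes tested, 156 (1.17%) passed it without T173I replicate 1, and none passed it under another alternative. The count higher at an unadjusted p under 0.05, 1 (Rpl17), was 0 with the stricter filter, which left out Rpl17. It was 3 with trend and robust eBayes and with repeated quantile normalization, and 4 with array weights. It was 2 with cyclic loess, with the mean of probe sets (Rpl17 and Rpl29) and with the replicate block. Of all genes tested, 10.3% were higher at that level with array weights and 4.67% to 5.47% with the other settings just named. With an array left out, the count higher was 1 to 4. It was 4 without T173I replicate 1 (Rpl17, Rpl27, Rpl32 and Rps7) and 3 without T173I replicate 3 or wild-type replicate 3. Of all genes tested, 9.85% were higher without T173I replicate 1 and 2.51% to 4.12% without another array. The count lower, 0, was 2 with array weights (Rpl6 and Rpl39l) and 0 to 1 with an array left out. The genes were Rpl6 without T173I replicate 2 and Rps23rg1 without wild-type replicate 3. Of all genes tested, 11.2% were lower with array weights, 3.53% without T173I replicate 2 and 3.98% without wild-type replicate 3. Counting subunit proteins alone, chosen after seeing the data, left both counts as they were. The medians of both subunits stayed positive under each alternative, at 0.0018 to 0.067 (large) and 0.034 to 0.13 (small) with an array left out. The replicate block kept each difference and moved the count higher to 2.

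With the mean of probe sets, signs turned for Rpl7l1 minus Rpl7 (-0.095), Rpl21 (-0.018), Rpl7 (0.043), Rpl9 (0.069), Rps28 (0.17) and Rps3a1 (0.071). With array weights they turned for Rpl28 (0.026), Rpl3 (-0.054), Rps28 (0.11) and Rps3a1 (0.041), with repeated quantile normalization for Rpl28 (0.0062) and Rps28 (0.021), and with cyclic loess for Rps28 (0.015). With an array left out, values ran across 0 for Rpl22l1 minus Rpl22 (-0.18 to 0.17), Rpl7l1 minus Rpl7 (-0.017 to 0.13), Rpl21 (-0.019 to 0.021), Rpl28 (-0.073 to 0.047), Rpl29 (-0.0093 to 0.025), Rpl3 (-0.070 to 0.097), Rpl39l (-0.18 to 0.0057), Rpl6 (-0.36 to 0.075), Rpl7l1 (-0.12 to 0.026), Rps27l (-0.092 to 0.016), Rps28 (-0.077 to 0.080), Rps29 (-0.094 to 0.033) and Rps3a1 (-0.15 to 0.053). None of these was called, and the cause was not tested.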

Other observations

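A further 57 probe sets list a ribosomal protein symbol together with another symbol and belong to no single gene. Their differences between ILK-T173I and wild-type ILK had a median of 0.054 log2 units, with 38 positive, and ran from -0.52 to 0.68. All T173I arrays lay above all wild-type arrays for 7 of the 57 and below for 2, where 7.23% and 7.95% of all genes tested did so.

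For 24 members with more than 1 probe set of their own, the probe sets gave differences of the same sign in 9 and of both signs in 15. The widest disagreement was that of Rpl3, from -0.26 to 0.60, whose probe sets had mean log2 signals of 4.79 to 10.44. Of the 8 probe sets of Rps12, 6 held identical values on every array, and 3 member genes in all had such identical probe sets, so their number is no measure of independent evidence.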
